A study of Homo sapiens with 16 samples.

Results

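Complement components and regulators were examined in H1299 cells with and without YEATS2 knockdown, as 9 genes chosen by name: C1S, C1R, C3, CFI, CFB, SERPING1, CD46, CD55 and CD59. The choice used the contrast itself, since C1S was picked for being among the largest rises, so the values and calls of these genes are given as a description, and no p-value of them is reported. Of the 9 genes, 4 have rows among the 12676 genes of the count table. Expression of C1R, C3, CFI, CFB and SERPING1 was not analysed here. H1299 is an established human line from a non-small cell lung carcinoma. The cells had been infected with lentivirus made from pLKO plasmids, carrying either a non-targeting shRNA (shNT, the control cells, 2 libraries) or an shRNA against YEATS2 (shYEATS2, the knockdown cells, 2 libraries), and YEATS2 is a histone acetyl-lysine reader of the ATAC acetyltransferase complex. Both groups received polybrene at 8 µg/ml during infection and puromycin at 2 µg/ml from 48 h, with selection for 4 to 7 days according to the labels, so the knockdown cells are a pool of infected cells and both groups carry a viral insert. The labels do not name the shRNA, and the study describes the duplicates as biological replicates of a single shRNA sequence. The p-values below measure only the spread between these 4 libraries.

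Complement is a cascade of plasma proteases and cell-surface regulators that marks and lyses targets. In the classical pathway C1q recruits the proteases C1r and C1s, of which C1s cleaves C4 and C2 to build the convertase that splits C3, and in the alternative pathway factor B supplies the protease of the convertase. C1 inhibitor (SERPING1) and factor I (CFI) restrain these steps in plasma, whereas CD46, CD55 and CD59 protect the cell that carries them. Most plasma complement comes from the liver, but epithelial and tumor cells also express components, and carcinoma cells commonly carry the membrane regulators.

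The listed genes received between 34718921 and 39417787 reads per library, and the scaled counts below were set by TMM to a common library size, the mean of the 4. YEATS2 had scaled counts of 4482 and 4104 in control cells and 665 and 673 in knockdown cells, a log2 fold change of -2.68 ± 0.10 (SE), with an FDR of 0.000583 in the quasi-likelihood test of edgeR (Benjamini-Hochberg adjusted). Of 11 genes listed to identify the line, KRT8, KRT18, VIM and CDH2 have rows and were counted in every library, with summed scaled counts of 143580 and 146080 in control cells and 127650 and 100770 in knockdown cells, while KRT19, CDH1, EPCAM, NKX2-1, SFTPB, SFTPC and NAPSA have no row and were not analysed here. Every listed gene has over 100 reads in at least 1 library, and 695 genes passed that level only in shYEATS2 libraries.

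C1S, the protease that passes the classical signal on, showed the largest difference of the 4 genes. It lies on chromosome 12 of GRCh37 (hg19) from 7096351 to 7178336 on the plus strand (ENSG00000182326), and its principal transcript has 12 exons. The raw counts were 14 (exact Poisson 95% interval, for counting error only, 7.65 to 23.5) and 16 (9.15 to 26.0) in control cells and 189 (163 to 218) and 634 (586 to 685) in knockdown cells. Both knockdown libraries stood above both controls, and replicate 2 of the knockdown was the higher.

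After scaling, C1S had 15.1 and 17.4 scaled reads in control cells and 186 and 561 in knockdown cells. The group means were 16.2 ± 1.62 and 373 ± 265 (SD, n = 2), a ratio of 23.0. The lowest ratio between a knockdown and a control library was 10.7 and the highest was 37.2. The size of the difference is therefore known only within a wide range, and the range comes mainly from the knockdown side.

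The fitted log2 fold change of C1S was 4.52 ± 0.62 (SE), at rank 10 of 12676 genes from the largest rise. C1S is among the 695 genes that were above 100 reads only in shYEATS2 libraries, so it could enter the table only by being higher there. CD46, CD55 and CD59 were above 100 reads in all 4 libraries. Leaving out shYEATS2 replicate 2 lowered the C1S log2 fold change to 3.51, and leaving out shYEATS2 replicate 1 raised it to 5.10. In bulk RNA, a change in the share of cells that express a gene and a change in RNA per cell cannot be told apart.

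The knockdown libraries differed from each other in C1S more than in most genes of a like level. The scaled count in replicate 2 was 3.02 times that in replicate 1, while the shNT libraries differed by 1.15 times. Among 3264 genes within 2-fold of the C1S level in the knockdown, 99.8% differed less between the knockdown libraries. YEATS2 itself differed by 1.01 times between them. Of the 1630 genes called higher across the table, 1390 were higher in knockdown replicate 2 than in replicate 1, and 8 of them, C1S included, by at least as large a ratio as C1S. Of all 12676 genes, 6257 were higher in replicate 2. Knockdown replicate 2 was also the deepest library and had the lowest summed count of the line's 4 counted markers. That sum is mostly VIM, at 111115 and 114660 in control cells and 96178 and 78728 in knockdown cells. KRT18 was also lowest in knockdown replicate 2, whereas KRT8 and CDH2 were higher there than in both controls, and the part of depth or of these markers in the C1S value was not tested.

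**Figure D1:**
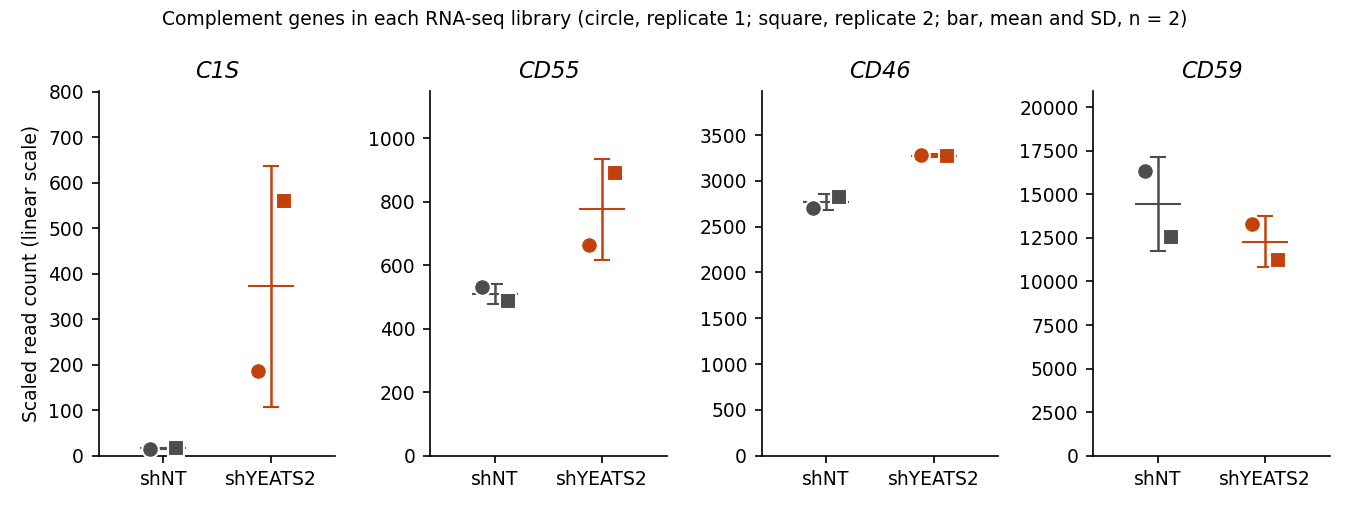
Scaled read counts (vertical axis, linear from 0, with its own range in each panel) of C1S, CD55, CD46 and CD59 in the 2 shNT and 2 shYEATS2 libraries, with the mean and SD of each group. C1S goes from 15.1 and 17.4 to 186 and 561, CD55 and CD46 lie higher in both knockdown libraries, and the CD59 groups overlap.

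CD55 and CD46, which act at the C3 step, had higher values in the knockdown, and CD59, which blocks the final pore, did not separate. CD55 (decay-accelerating factor) is a glycolipid-anchored protein that speeds the decay of the convertases. It lies on chromosome 1 from 207494864 to 207560149 on the plus strand (ENSG00000196352). Its scaled counts were 533 and 488 in control cells and 663 and 889 in knockdown cells. The groups did not overlap, and the knockdown libraries lay further apart than the controls. The group means were 510 ± 31.4 and 776 ± 160 (SD, n = 2), and the log2 fold change was 0.61 ± 0.16 (SE). Without shYEATS2 replicate 2 it was 0.38, and without shYEATS2 replicate 1 it was 0.80.

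CD46 (membrane cofactor protein) is the transmembrane cofactor with which factor I cuts C3b and C4b. It lies on the same arm of chromosome 1, from 207925382 to 207968858 on the plus strand (ENSG00000117335). Its scaled counts were 2707 and 2829 in control cells and 3288 and 3267 in knockdown cells. The groups were narrow and did not overlap. The group means were 2768 ± 86.3 and 3277 ± 14.8 (SD, n = 2), an increase of 18.4%, and the log2 fold change was 0.24 ± 0.09 (SE), with a range from 0.21 to 0.28 when single libraries were left out.

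CD59 (protectin) is a small glycolipid-anchored protein that stops the assembly of the membrane attack complex. It lies on chromosome 11 from 33724556 to 33758025 on the minus strand (ENSG00000085063). Its scaled counts were 16363 and 12538 in control cells and 13317 and 11258 in knockdown cells. The groups overlapped, because knockdown replicate 1 was above control replicate 2. The group means were 14451 ± 2705 and 12288 ± 1456 (SD, n = 2), and the log2 fold change was -0.23 ± 0.15 (SE), between -0.41 and -0.03 when single libraries were left out.

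At an FDR under 0.01 in the fit across all genes, C1S alone among the 4 was called higher and 0 were called lower, where the quasi-likelihood test called 12.9% of all 12676 genes higher and 12.5% lower. At an unadjusted p under 0.05, 3 of the 4 were higher and 0 lower, where 28.7% of all genes were higher and 27.8% lower. At an FDR under 0.01, DESeq2, edgeR's exactTest and limma-trend also called 0 lower. At that FDR, DESeq2 and exactTest called CD55 higher as well as C1S. Over all 12676 genes they called 2159 and 2596 higher, against 1630 by the quasi-likelihood test. In C1S, CD55 and CD46 both knockdown libraries lay above both controls, as they did in 39.7% of all genes, and both lay below in 39.8%. The median log2 fold change of the 4 was 0.42, against -0.0019 over all genes tested. No scaling turned the direction of any of the 4. Because the members were selected on this contrast, nothing is read from these counts.

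**Figure D2:**
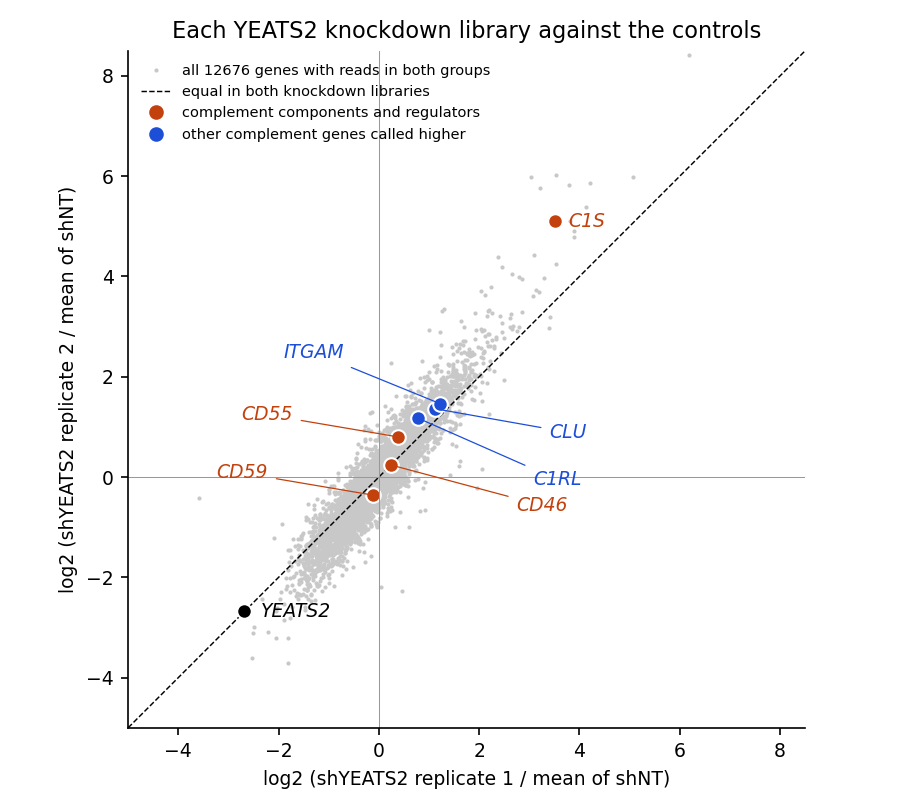
Log2 ratio of shYEATS2 replicate 1 (horizontal axis) and of shYEATS2 replicate 2 (vertical axis) to the mean of the shNT libraries, for 12676 genes (grey) and named genes (colored); both axes use the same shNT mean, so points share its error. C1S is at 3.52 and 5.11, above the dashed line of equality, and YEATS2 lies on it at -2.69 and -2.67.

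Levels of different genes were compared per kilobase of merged exons, on the TMM scale. In the shNT libraries CD59 had 1550 and 1188 reads per kb, CD46 175 and 182, CD55 51.9 and 47.6, and C1S 1.82 and 2.09. The same order, CD59 over CD46 over CD55 over C1S, held in all 4 libraries. In the shYEATS2 libraries CD59 had 1261 and 1066 reads per kb, CD46 212 and 211, CD55 64.7 and 86.7, and C1S 22.4 and 67.6. In shYEATS2 replicate 2, CD55 was 1.28 times C1S per kb, against 28.6 times in shNT replicate 1.

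C1S made up 0.102% and 0.147% of the summed reads per kb of the 4 genes in the shNT libraries, and 1.44% and 4.72% in knockdown cells. CD59 made up 87.2% and 83.7% in shNT and 80.8% and 74.5% in shYEATS2. The merged exons of these genes hold far more sequence than their principal transcripts. With the length of the principal transcript in place of merged exons, the order of the 4 genes was kept, and CD59 stood 2.65 times above CD46 in shNT replicate 1, against 8.88 times with merged exons.

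The promoters of CD55, CD46 and CD59 are shown to let their sequence be compared, as is that of C1RL, the other counted protease gene beside C1S. Each is the stretch of 250 bases before a RefSeq transcript start (GRCh38.p14, read 5′ to 3′ on the strand of the gene), at the most upstream start where a gene has several. Capitals mark the STAT element TTCNNNGAA (GAS).
CD55, chr1:207321428-207321677, plus strand: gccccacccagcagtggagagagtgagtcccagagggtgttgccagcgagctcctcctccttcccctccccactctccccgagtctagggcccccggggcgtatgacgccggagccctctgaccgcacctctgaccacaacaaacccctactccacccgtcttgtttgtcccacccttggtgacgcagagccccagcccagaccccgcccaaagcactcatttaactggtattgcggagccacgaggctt
CD46, chr1:207751788-207752037, plus strand: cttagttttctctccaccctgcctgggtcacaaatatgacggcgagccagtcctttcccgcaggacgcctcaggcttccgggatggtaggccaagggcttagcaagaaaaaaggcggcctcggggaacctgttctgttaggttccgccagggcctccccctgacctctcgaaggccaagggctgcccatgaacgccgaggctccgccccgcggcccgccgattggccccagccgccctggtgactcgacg
CD59, chr11:33736480-33736729, minus strand: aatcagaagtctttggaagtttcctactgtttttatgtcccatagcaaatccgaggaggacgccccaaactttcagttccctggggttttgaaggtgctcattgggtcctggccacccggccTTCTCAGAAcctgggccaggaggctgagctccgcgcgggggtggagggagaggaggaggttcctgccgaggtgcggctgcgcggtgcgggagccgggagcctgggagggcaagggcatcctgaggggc
C1RL, chr12:7109215-7109464, minus strand: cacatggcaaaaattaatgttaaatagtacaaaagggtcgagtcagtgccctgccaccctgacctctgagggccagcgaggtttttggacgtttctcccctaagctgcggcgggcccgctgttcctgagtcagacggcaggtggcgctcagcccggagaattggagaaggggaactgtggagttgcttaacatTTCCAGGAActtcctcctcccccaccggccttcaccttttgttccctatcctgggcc

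Windows from 250 bases before to 50 after each start were searched on both strands for TTCNNNGAA, for the interferon element core GAAANNGAAA and for the word TATAAA. The GAS word lay 128 bases before the most upstream CD59 start, in 2 of its 4 entries, whose windows overlap and hold the same word, and 57 bases before the C1RL start. Of all 35116 windows, 7.66% hold the GAS word, 3.57% the interferon core and 11.5% TATAAA. In the CD55 and CD46 windows none of these letters was found, and the CD59 and C1RL windows hold neither of the other words. The CG dinucleotide occurs 19 times in the CD55 window, 25 times in the first CD46 window and 11 times in the C1RL window, beside a median of 14 over all windows. In the 4 CD59 windows it occurs 18, 22, 1 and 1 times, from the most upstream start on. Windows of C1R, CFB and CFI, which have no counts here, were searched too and are not printed. The CFB window holds all 3 words, 1 of the 2 C1R entries holds the GAS word, and CFI holds none. C1S, C3 and SERPING1 have no promoter entry. These matches are descriptions of letters, and the occupancy of the promoters was not analysed here.

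C1S lies in a cluster of classical protease genes, and 10 other counted genes lie within 100 kb of its annotated ends. Of these, C1RL and LPCAT3 were called higher and PHB2 was called lower, beside 12.9% and 12.5% of all genes, at an FDR under 0.01 in the quasi-likelihood test of edgeR (Benjamini-Hochberg adjusted). C1RL encodes a C1r-like serine protease. The scaled counts of C1RL were 222 and 292 in control cells and 443 and 578 in knockdown cells, which did not overlap. The log2 fold change was 0.99 ± 0.20 (SE) with an FDR of 0.0075. C1RL lost the call without shNT replicate 1 or without shYEATS2 replicate 2, in fits that also called fewer genes over the whole table. C1RL-AS1, an antisense RNA gene that overlaps the 5′ end of C1RL, had a log2 fold change of 0.76 ± 0.25 (SE). Its scaled counts were 47.3 and 62.9 in control cells and 95.3 and 91.9 in knockdown cells. It passed 100 reads only in an shYEATS2 library, so it could enter the table only by being high there, and no test of it is read. Since the library kit does not mark strand, reads where it shares sequence with C1RL cannot be told apart.

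LPCAT3, a phospholipid acyltransferase gene, runs through the first part of C1S on the opposite strand, with no shared exon sequence. LPCAT3 had scaled counts of 2608 and 2990 in control cells and 3917 and 4753 in knockdown cells, and its log2 fold change was 0.63 ± 0.13 (SE). PHB2, the prohibitin gene 16408 bases upstream, had a log2 fold change of -0.56 ± 0.09 (SE). The genes wholly upstream of C1S lay on either side of 0, from -0.56 for PHB2 to 0.31 for ATN1. Of the 8295 exon bases of C1S, 229 are shared with another annotated gene on the same strand. For CD46, 797 of 15505 exon bases are shared with the antisense RNA gene MIR29B2CHG, and for CD59, 629 of 10557 with a gene on the same strand. The part of such reads in the counts was not tested.

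**Figure D3:**
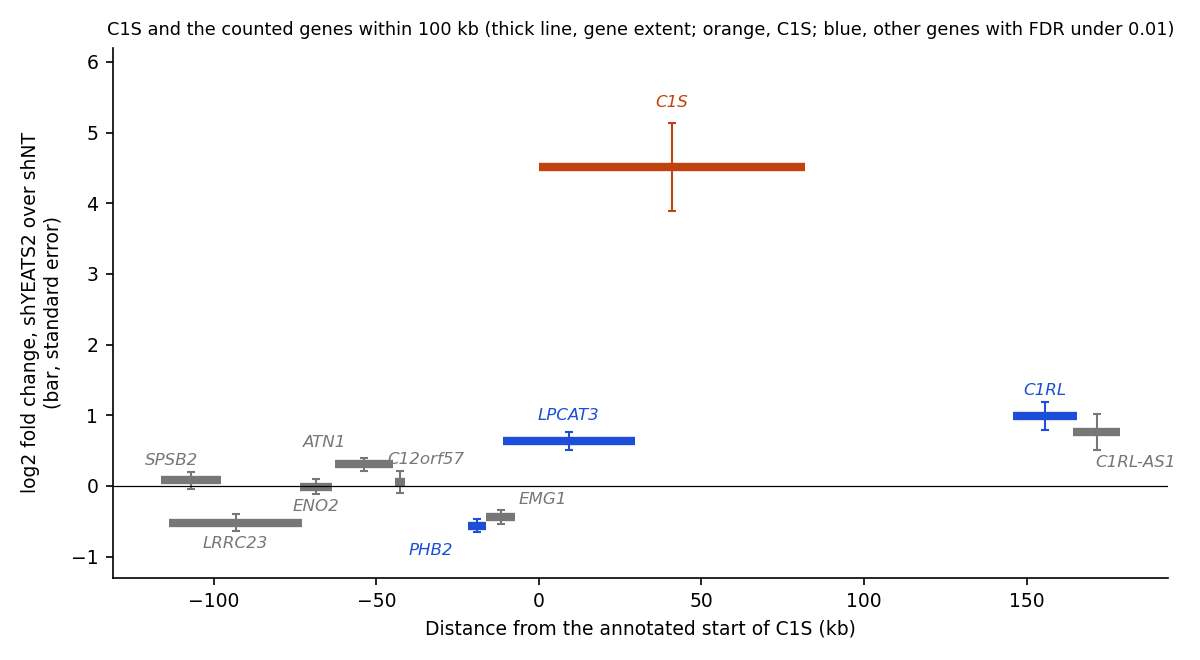
Log2 fold change with its standard error (vertical axis) of C1S and the 10 counted genes within 100 kb, placed by distance in kb from the annotated start of C1S (horizontal axis; thick lines span each gene). C1S stands at 4.52, C1RL and C1RL-AS1 at 0.99 and 0.76, and the remaining genes between -0.56 and 0.63.

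The rest of the pathway was read from a list of 55 further complement genes, of which 9 have rows and 46 were not analysed here. At an FDR under 0.01 by the Benjamini-Hochberg adjusted quasi-likelihood test of edgeR, 3 of the 9 rose, C1RL, CLU and ITGAM, and 0 fell, beside 12.9% and 12.5% of all genes. The median log2 fold change of the 9 was -0.21, against -0.0019 over all genes. At an unadjusted p under 0.05, 4 of the 9 were higher and 2 lower, beside 28.7% and 27.8% of all genes. At an FDR under 0.01, DESeq2 and exactTest added PTX3 to the genes called higher and called C1QBP lower, while limma-trend called 0 lower. Over all genes DESeq2 called 2159 higher and 2190 lower, and exactTest 2596 and 2497. The quasi-likelihood test called 1630 and 1581. The calls of C1RL and ITGAM were lost without shYEATS2 replicate 2, in a fit that also called fewer genes over the whole table.

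CLU encodes clusterin, a secreted chaperone that also holds back the terminal complex in plasma. Scaled counts of CLU were 1553 and 2045 in control cells and 3885 and 4630 in knockdown cells, a log2 fold change of 1.24 ± 0.16 (SE) with an FDR of 0.00188 (quasi-likelihood test of edgeR). Both knockdown libraries were far above both controls, and CLU was called under all 14 other fits.

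ITGAM encodes the alpha chain of complement receptor 3, known from myeloid cells. ITGAM had scaled counts of 231 and 136 in control cells and 426 and 507 in knockdown cells, a log2 fold change of 1.35 ± 0.25 (SE) with an FDR of 0.00613 (quasi-likelihood test of edgeR). The groups did not overlap, although the controls differed among themselves. ITGB2, its partner chain, has no row and was not analysed here. The 6 listed monocyte and macrophage markers, PTPRC, CD14, CD68, CD163, CSF1R and TYROBP, also have no row.

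The remaining 6 genes did not pass the test. PTX3, a long pentraxin that binds C1q, had scaled counts of 507 and 304 in shNT and 726 and 803 in shYEATS2, with an FDR of 0.0169 in the quasi-likelihood test of edgeR. The others had log2 fold changes below 0: CFD, the alternative pathway protease factor D, -0.21 ± 0.21 (SE), C5, the source of the terminal pathway, -0.22 ± 0.16, CALR, an endoplasmic reticulum chaperone that can bind C1q, -0.28 ± 0.12, C1QBP, a C1q-binding protein found mostly in mitochondria, -0.35 ± 0.09, and CSMD1, a membrane regulator, -0.43 ± 0.14. No lectin pathway component out of 9 listed has a row.

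**Figure D4:**
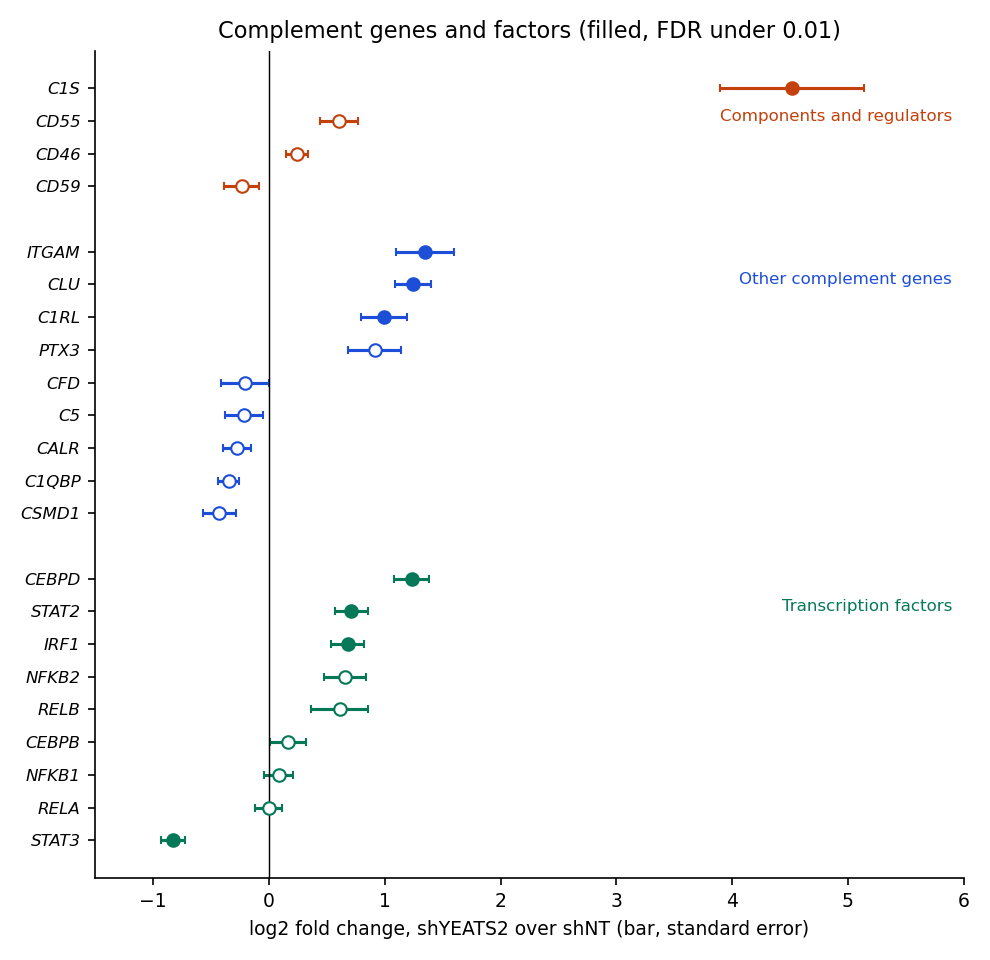
Log2 fold change of shYEATS2 over shNT (horizontal axis) with its standard error for the 4 complement components and regulators, 9 other complement genes and 9 transcription factors; filled points passed an FDR under 0.01. C1S at 4.52 stands apart, the next being ITGAM at 1.35, and STAT3 at -0.83 is the lowest.

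Factors known to act on complement promoters were listed as a group, of which 11 are reported and 9 of these have rows. At an FDR under 0.01 in the quasi-likelihood test of edgeR (Benjamini-Hochberg adjusted), CEBPD, STAT2 and IRF1 rose and STAT3 fell, and 5 did not pass, beside 12.9% of all genes higher and 12.5% lower. The median log2 fold change of these 9 was 0.61, against -0.0019 over all genes. CEBPD, a C/EBP factor of the acute-phase response, had scaled counts of 228 and 232 in shNT and 489 and 591 in shYEATS2, a log2 fold change of 1.23 ± 0.15 (SE) with an FDR of 0.00169. STAT2 and IRF1, factors of interferon signaling, had log2 fold changes of 0.71 ± 0.14 (FDR 0.00765) and 0.68 ± 0.14 (FDR 0.00962). Both FDR values are close to the threshold, and both calls were lost without shYEATS2 replicate 2, while that of CEBPD was kept. STAT2 also lost its call without shNT replicate 1 and IRF1 without shNT replicate 2. Each of these fits also called fewer genes over the whole table.

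STAT3, the signal transducer of interleukin-6 type cytokines, had scaled counts of 3372 and 3731 in shNT and 1943 and 2056 in shYEATS2, a log2 fold change of -0.83 ± 0.10 (SE) with an FDR of 0.00172 (quasi-likelihood test of edgeR). It was called lower under all 14 other fits. Among the NF-κB genes, NFKB2 had a log2 fold change of 0.66 ± 0.18, RELB 0.61 ± 0.25, NFKB1 0.09 ± 0.13 and RELA -0.00 ± 0.12 (SE). CEBPB had 0.17 ± 0.15. None of these passed an FDR under 0.01 in the quasi-likelihood test of edgeR. DESeq2 and exactTest called NFKB2 higher, among 2159 and 2596 genes called higher over the whole table, against 1630 by the quasi-likelihood test. Without shNT replicate 1 NFKB2 and RELB were called.

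Of 19 listed markers of hepatocytes, monocytes or macrophages, fibroblasts and endothelium, 1 has a row. This is SERPINA1, a liver-rich protease inhibitor gene that epithelial cells also express, with scaled counts of 965 and 691 in control cells and 366 and 328 in knockdown cells. It fell, with a log2 fold change of -1.26 ± 0.18 (SE) and an FDR of 0.00271 in the quasi-likelihood test of edgeR. At an FDR under 0.01 in that test, 12.5% of all genes were called lower. Whether the fall of SERPINA1 relates to C1S was not tested. The other markers were not analysed here.

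The genes whose pattern over the 4 libraries was most like that of C1S were found among the 12121 genes whose scaled counts averaged 100 or more, by the distance between log2 values centred on the shNT mean. They were CTD-2228K2.7 (distance 0.631), MFAP5 (0.869), DMBT1 (0.990), GPX3 (1.45) and APOE (1.57). The distance used these same values, so a large rise in the knockdown was built into the choice and is no finding. All of them but APOE averaged under 100 in shNT, and so passed that level only through shYEATS2. DMBT1 had scaled counts of 8.61 and 9.76 in shNT and 75.7 and 580 in shYEATS2, so its knockdown libraries differed even more than those of C1S. MFAP5 had 275 and 451 scaled reads in shYEATS2, a mean 15.3 times that in shNT. APOE, the apolipoprotein gene, had 296 and 497 in shNT and 3356 and 4811 in shYEATS2, a higher level with a ratio of 10.3.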

How the data were processed

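RNA-seq of 4 H1299 libraries (2 shNT, 2 shYEATS2) was used, and the 12 ChIP-seq samples of the series were not analysed here. The authors deposited raw read counts per gene, whose reads the methods say were aligned to hg19 by the RNA-Seq unified mapper (the submitters' processing notes name TopHat2 2.0.10) and counted with HTSeq (0.6.1p1). The annotation is not given in the sources used here. The table's other columns, deposited as log2 fold changes, p-values and FDR, belong to the authors' own comparison and were not used.

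A minimum of 10 reads in 2 or more libraries was set, which all 12676 genes met. They were compared in R 4.3.3 by the quasi-likelihood test of edgeR 4.0.16 with TMM scaling and Benjamini-Hochberg adjustment over all genes at an FDR under 0.01. The methods name exactTest, which was an alternative here. The standard error is the size of the fit's unshrunken log2 fold change divided by the square root of the F statistic. The log2 fold changes printed are those edgeR reports, which are shrunken. Other alternatives were DESeq2 (1.42.0), limma-trend (limma 3.58.1), other scalings, filters and thresholds, a replicate block, and each library left out in turn. Limma-trend used log2 values of TMM-scaled CPM with pseudocounts of 1 and 0.1 CPM. CPM, edgeR's count relative to library size, is a different unit from the scaled counts: in shNT, C1S averaged 0.445 CPM and 16.2 scaled reads. Libraries were grouped by their labels.

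The members and the gene lists were chosen with earlier results of these data known. All members, YEATS2, every listed complement gene and factor with a row (except 1 factor that is not reported here and was left out of its list's counts and median), and the 5 genes most like C1S were named, as were the neighbours of C1S. Positions and lengths come from GENCODE release 44 on GRCh37, to which 98.3% of gene identifiers matched, and promoters from RefSeq (GRCh38.p14). The depth of 34718921 to 39417787 reads leaves a counting error of 18.3% on the summed C1S count in shNT and 3.49% in shYEATS2, beside which the spread between libraries is larger in shYEATS2.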

Additional observations from a re-analysis of the deposited data

How the results depend on the processing

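C1S was called higher under all 16 alternatives, which its choice for this contrast and its place in the table only through the knockdown libraries favour, so the count is no sign of stability. No log2 fold change of the 4 members turned its sign. DESeq2, exactTest, the replicate block and an FDR under 0.05 each called 2 members higher, C1S and CD55, in place of 1, and leaving out single libraries gave 1 to 2 (2 without shYEATS2 replicate 1). Among the other complement genes called lower, DESeq2, exactTest and the replicate block gave 1 (C1QBP) and an FDR under 0.05 gave 2 (C1QBP and CSMD1), in place of 0. When single libraries were left out, the fewest other complement genes and transcription factors were called higher without shYEATS2 replicate 2. That fit also called fewer genes over the whole table than the main fit. DESeq2, exactTest and the replicate block added PTX3 to the other complement genes called higher and NFKB2 to the factors (4 in place of 3 each). Over all genes these settings also called more, 2159, 2596 and 2742 higher and 2190, 2497 and 2715 lower. The main fit called 1630 higher and 1581 lower. The cause was not tested. The C1S log2 fold change fell to 2.79 with limma-trend and a pseudocount of 1 CPM, which understates changes of low genes.

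Replicate numbers are shared between the groups, but the labels do not say what a number stands for. The deviations of same-numbered libraries had a correlation of 0.403 across 12676 genes, over 2 pairs. The replicate block raised the calls over all genes from 1630 higher and 1581 lower to 2742 and 2715. The calls were 2596 and 2497 with exactTest, 3093 and 3011 at an FDR under 0.05, and 775 to 1971 higher and 850 to 2024 lower with single libraries left out, where a lone library is assumed to vary like the other group. Scaling by total counts moved the all-gene median of the log2 fold change from -0.0019 to 0.12 and the calls to 2363 higher and 1166 lower, from 50.8% to 67.0% higher. With it CD46 stood at 0.36 and CD59 at -0.11. The 2 libraries per group and 14 and 16 control reads of C1S limit how well its ratio is known.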
